A study of Drosophila melanogaster with 2 samples.

Results

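The 5 genes described here encode heterochromatin proteins and chromatin remodelling subunits that have been linked to the fly STAT protein: Su(var)205, Su(var)3-9, Su(var)3-7, E(bx) and Iswi. They were chosen by name, as 5 of the 13945 protein-coding genes on the 6 chromosome arms, and all 5 matched the annotation. For each gene every peak summit in the gene span or within 5 kb of it was taken from the 4 deposited peak lists.

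Binding of Stat92E was measured in whole embryos of both sexes, 0 to 12 h old, by chromatin immunoprecipitation and sequencing (ChIP-seq). All embryos came from 1 transgenic fly strain, Stat92E-GFP, that stably expresses Stat92E with an eGFP tag at its C-terminus. There was 1 group of 2 biological replicates, numbered 1 and 3, and no control sample or untagged strain was analysed here. The antibody is labelled as Stat92E, whereas the description of the experiment names an anti-GFP antibody. The sources used here do not say which promoter drives the tagged protein, nor whether the embryos carry untagged Stat92E as well.

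Stat92E is the transcription factor of the JAK/STAT pathway, which it serves as a DNA-binding dimer after phosphorylation by the kinase Hopscotch. In Drosophila, Stat92E that is not phosphorylated has also been described on heterochromatin together with HP1a, the product of Su(var)205, and excess JAK activity disrupts heterochromatin. Su(var)3-9 is a methyltransferase for lysine 9 of histone H3, the mark that HP1a binds, and Su(var)3-7 is a zinc finger protein that associates with HP1a. E(bx) encodes Nurf301, the largest subunit of the remodelling complex NURF, and Iswi encodes the ATPase of NURF, ACF and CHRAC. Nurf301 has been described as a corepressor of STAT target genes in blood cells. The values that follow describe where Stat92E peaks lay around the genes that encode these proteins.

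A reproducible peak is a peak of the list that the authors thresholded by IDR (irreproducible discovery rate), which held 3603 peaks, 3601 of them on the arms. These were identical to the 3603 strongest of the 30000 peaks in the authors' pooled list, in which both replicates were combined. The lists of replicate 1 and replicate 3 also held 30000 peaks each. Signal below is the authors' score of a peak, with no stated unit, and rank is its place by signal within its own list, with 1 the strongest. Scores are not comparable between lists, so ranks are set side by side. In whole embryos a low signal in many cells cannot be told apart from a high signal in few.

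Reproducible summits lay near 4 of the 5 genes but at the own promoter of only 2. By the 5 kb rule Su(var)205, Su(var)3-9 and Su(var)3-7 had 2 reproducible summits each, Iswi had 1 and E(bx) had 0, which makes 7 in all. By the same rule 42.5% of all protein-coding genes had at least 1. Within 1 kb of their own transcription start site (TSS) Su(var)3-9 and Su(var)3-7 had a reproducible summit, 2 of 5 genes, against 21.3% of all genes. When each reproducible summit was given to the gene with the nearest TSS, 1 of the 5 genes was hit, Su(var)3-9 in a tie with eIF2gamma, against 18.5% of all genes. All 7 summits lay close to some protein-coding TSS, at 29 to 179 bp with a median of 127 bp, and 5 of the 7 belonged to the promoter of a neighbour more than 1 kb from the start of the named gene. Of all 3601 reproducible summits 65.5% lay within 1 kb of a protein-coding TSS. Genes differ in the length over which a summit can count. Of other genes with a span of 0.8 to 1.25 times that of the member, the share with a reproducible summit by the 5 kb rule was 39.7% for Su(var)205, 46.2% for Su(var)3-9, 51.0% for Su(var)3-7, 56.7% for E(bx) and 47.2% for Iswi.

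**Figure D1:**
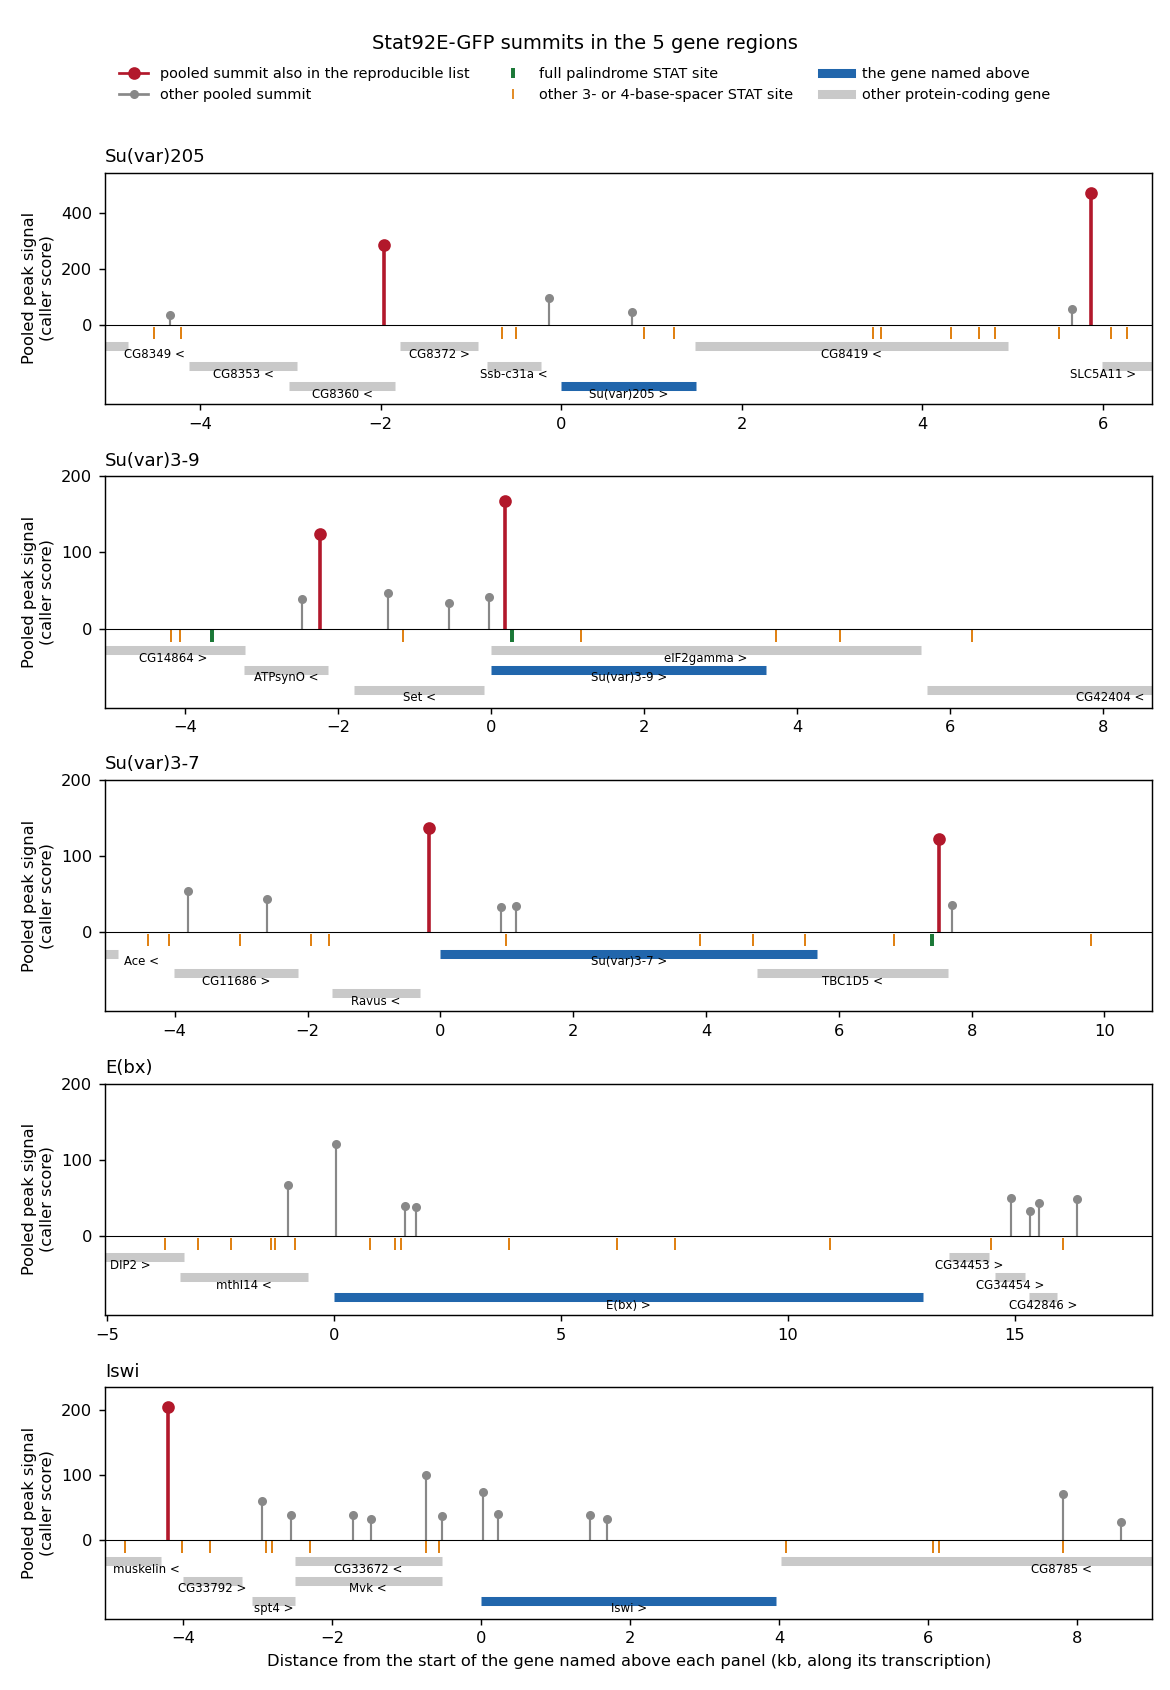
Pooled peak signal (caller score, y axis) at each summit against distance from the start of the named gene (kb along its transcription, x axis), with red for summits also in the reproducible list, grey for other pooled summits, ticks for STAT sites (green for the full palindrome) and bars for protein-coding genes, whose direction is given by > and <. The 7 red summits stand at promoters, 5 of them at promoters of neighbouring genes, and E(bx) has none.

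Su(var)205 (FBgn0003607) lies on 2L at 8209626 to 8211122, on the minus strand, and spans 1497 bp. Its own promoter carried a summit outside the reproducible set. This pooled summit lay at 8211255, 133 bp upstream of the start, with a signal of 97.0 and rank 5574. The gene Ssb-c31a, which encodes a single-stranded DNA-binding protein, starts 225 bp away on the other strand, and its TSS was nearer to the summit (92 bp). In replicate 1 the promoter summit ranked 9220, with a signal of 43.8, and in replicate 3 it ranked 3066, with a signal of 60.1. The replicates thus placed it on different sides of rank 3603. The replicate 3 summit was only 14 bp from the start of Ssb-c31a, against 211 bp from that of Su(var)205. A weaker pooled summit (rank 16131) lay 779 bp inside the gene and had a summit within 100 bp in replicate 1 (rank 13576) but not in replicate 3.

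The strongest peaks of the whole set of regions lay beside Su(var)205 at other promoters. The summit at 8205259 had a pooled signal of 473 and ranked 68, and it ranked 88 in replicate 1 and 68 in replicate 3. It lay 127 bp upstream of SLC5A11, a gene of the sodium-coupled transporter family, and 5863 bp from the start of Su(var)205, past the end of the gene. The summit at 8213088 had a pooled signal of 287 and ranked 309, with rank 1003 in replicate 1 and rank 143 in replicate 3. It lay in an intron of CG8360, 29 bp from a start of that gene and 1966 bp from that of Su(var)205. Both were strong in both replicates, which the promoter summit of Su(var)205 was not.

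The stretch between the starts of Su(var)205 and Ssb-c31a is shown because the promoter summit lies in it, and 101 bp around the SLC5A11 summit are shown because that peak was the strongest of the 7. Here and below, sequence is RefSeq's copy of Release 6, the assembly of dm6, read 5′ to 3′ on the strand of the named gene, in lower case with motif matches in capitals. The motifs were TTCNNNGAA, the same half-sites with 4 bases between them, TTCCNGGAA (a subset of the first and called the full palindrome), TATCGATA (the DRE element), core promoter motif 1, the GAGA motif (GAGAG), the E-box motif CACGTG and a second E-box motif, CAGCTG, on both strands. Neither stretch held any of them.
Su(var)205 promoter, chr2L:8211123-8211346, minus strand: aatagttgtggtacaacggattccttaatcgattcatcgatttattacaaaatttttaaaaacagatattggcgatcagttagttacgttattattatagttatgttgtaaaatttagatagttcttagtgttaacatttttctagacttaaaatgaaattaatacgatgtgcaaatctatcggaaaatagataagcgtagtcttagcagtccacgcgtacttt
SLC5A11 summit, chr2L:8205209-8205309, minus strand: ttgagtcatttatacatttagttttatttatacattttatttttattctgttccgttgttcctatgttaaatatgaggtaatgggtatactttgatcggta
The first is 29.0% G and C and the second 25.7%.

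Su(var)3-9 (FBgn0263755) lies on 3R at 15259864 to 15263458, on the minus strand, and had the highest-ranked promoter summit of the 5 genes. The pooled summit at 15263279 had a signal of 167 and ranked 1606. In replicate 1 the summit had a signal of 89.2 and ranked 2248, and in replicate 3 it had a signal of 88.0 and ranked 1078, so both replicates placed it above rank 3603. Of all protein-coding genes, 9.54% had a stronger pooled summit within 1 kb of their own TSS. The promoter is not that of Su(var)3-9 alone. The annotation gives the same start, 15263458, to eIF2gamma, which encodes a subunit of a translation initiation factor, and the 2 genes share their first exon. The gene Set, which encodes a histone chaperone, starts 94 bp away in the other direction. The summit lay 179 bp downstream of the shared start, in an intron of both genes, and cannot be divided between them. A further reproducible summit, of rank 3398 (signal 124), lay 2237 bp upstream of Su(var)3-9 and 104 bp from the start of ATPsynO, an ATP synthase subunit gene. It ranked 6067 in replicate 1 and 2462 in replicate 3.

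A full STAT palindrome lay in the Su(var)3-9 peak. It occupied 15263182 to 15263190 in the shared intron, 272 bp downstream of the start and 93 bp from the pooled summit. It was 78 bp from the summit of replicate 1 and 149 bp from that of replicate 3, so it lay beyond 50 bp in all. The palindrome and its flanks are given with the stretch between the starts of Su(var)3-9 and Set, which held 2 copies of the DRE element.
Su(var)3-9 and eIF2gamma intron, chr3R:15263152-15263220, minus strand: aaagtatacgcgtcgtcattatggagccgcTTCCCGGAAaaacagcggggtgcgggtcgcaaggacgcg
Su(var)3-9 promoter, chr3R:15263459-15263551, minus strand: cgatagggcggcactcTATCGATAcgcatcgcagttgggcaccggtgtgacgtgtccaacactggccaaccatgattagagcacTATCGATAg
Capitals mark the palindrome in the first and DRE in the second. A further copy of TATCGATA lay at 96 to 89 bases before the start, across the start of Set. DRE was present in the 250 bases upstream of 2 of the 5 genes, Su(var)3-9 and Iswi, and of 8.0% of all protein-coding genes.

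Su(var)3-7 (FBgn0003598) lies on 3R at 13264364 to 13270038, on the plus strand, and its promoter summit differed in strength between the replicates. The pooled summit at 13264196 had a signal of 137 and ranked 2672. It lay 168 bp upstream of Su(var)3-7 and 135 bp from the start of Ravus, which is transcribed the other way from 303 bp away. In replicate 3 a summit 1 bp from it ranked 1336 (signal 82.8). In replicate 1 the nearest summit ranked 7191 (signal 51.2) and lay 109 bp from the pooled one and 59 bp from the start of Su(var)3-7. The replicates therefore differed in rank and in which of the 2 starts was nearer.

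The second reproducible summit beside Su(var)3-7 lay past the end of the gene, at 13271873, in the 5' UTR of TBC1D5, a gene of the Rab GTPase-activating protein family. It was 138 bp from the start of TBC1D5 and 7509 bp from that of Su(var)3-7, with a pooled signal of 123 and rank 3490. It ranked 5249 in replicate 1 and 2772 in replicate 3. This peak also held a full palindrome, at 13271766 to 13271774 in a coding exon of TBC1D5, 103 bp from the pooled summit. The promoter stretch of Su(var)3-7, which held no motif match, and the flanks of this palindrome are as follows.
Su(var)3-7 promoter, chr3R:13264114-13264363, plus strand: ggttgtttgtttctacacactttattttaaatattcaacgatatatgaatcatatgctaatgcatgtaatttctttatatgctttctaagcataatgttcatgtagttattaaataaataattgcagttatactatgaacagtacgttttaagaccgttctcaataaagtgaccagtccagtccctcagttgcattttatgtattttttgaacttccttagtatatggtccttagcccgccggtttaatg
TBC1D5 coding exon, chr3R:13271736-13271804, minus strand: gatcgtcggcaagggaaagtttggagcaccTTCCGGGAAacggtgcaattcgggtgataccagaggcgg
On the strand of Su(var)3-7 this palindrome reads TTCCCGGAA, the same letters as in the intron of Su(var)3-9.

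E(bx) (FBgn0000541) lies on 3L at 233926 to 246912, on the minus strand, and is the longest of the 5 genes at 12987 bp. Its promoter peak was left just outside the reproducible list. The pooled summit at 246871 lay 41 bp downstream of the start, ranked 3609 and had a signal of 120.692. The weakest reproducible peak, of rank 3603, had a signal of 120.776, and the strongest pooled peak outside the list, of rank 3604, had 120.768. In replicate 1 the promoter summit had a signal of 73.0 and ranked 3636, and in replicate 3 it had a signal of 64.1 and ranked 2638. The ranks of E(bx) thus differed least between the replicates among the 5 promoters. Its own start was the nearest in each of the 3 lists. The deposited -log10 q-value of its pooled peak, 3.62, was the value that all reproducible peaks share, and the Su(var)205 promoter peak had it too. No other pooled summit of the region ranked above 9934. That summit lay 1027 bp upstream of E(bx), and its nearest start was that of the receptor gene mthl14, which begins 579 bp from that of E(bx) in the other direction. Replicate 1 alone held a stronger summit on that side, of rank 4690 at 832 bp upstream of E(bx) and 253 bp from the start of mthl14. Along the 12987 bp of the gene itself the pooled list held 2 further summits, of ranks 19785 and 21044, at 1560 and 1808 bp from the start. No reproducible summit and no STAT site in a reproducible peak lay in this region. The 250 bases before the start, in which the replicate 3 summit lay, held none of the motifs.
E(bx) promoter, chr3L:246913-247162, minus strand: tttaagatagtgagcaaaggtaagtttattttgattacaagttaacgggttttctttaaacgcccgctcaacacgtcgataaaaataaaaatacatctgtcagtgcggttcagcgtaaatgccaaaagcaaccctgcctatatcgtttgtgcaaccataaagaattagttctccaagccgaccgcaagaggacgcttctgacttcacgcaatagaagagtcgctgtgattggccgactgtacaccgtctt

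In these 4 genes the pooled promoter summit was the strongest pooled summit within 1 kb of the start and stood within 179 bp of it. The lowest of the 4 pooled signals, 97.0 at Su(var)205, compares with 120.776 at the end of the reproducible list, and the highest was 167 at Su(var)3-9.

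Iswi (FBgn0011604) lies at 12636671 to 12640628 on the plus strand of the right arm of chromosome 2, and had the largest number of pooled summits, 13. The only reproducible one (rank 887, signal 205) lay 4198 bp upstream of the gene, 95 bp from the start of muskelin, and ranked 1454 in replicate 1 and 1780 in replicate 3. At the start of Iswi the pooled list held a summit of rank 8592 (signal 74.0), 25 bp downstream. A stronger pooled summit, of rank 5224 (signal 100), lay 738 bp upstream, 208 bp from the common start of CG33672 and Mvk, the mevalonate kinase gene, which are transcribed the other way from 530 bp away. The replicates differed in which promoter was stronger. In replicate 1 the summit at the start of Iswi ranked 6840 and the one at Mvk ranked 19759. In replicate 3 the summit at Mvk ranked 1770 and the one nearest to Iswi ranked 14785.

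Side by side, the strongest summit within 1 kb of the own TSS ranked higher in replicate 3 than in replicate 1 at all 5 genes, but for Iswi the summits compared belong to different promoters. The Iswi rank in replicate 3 is that of the summit 680 bp upstream at CG33672 and Mvk, whereas in replicate 1 it is that of the summit at the start of Iswi itself. For the summit nearest to the start of Iswi the order was the reverse, with rank 6840 in replicate 1 and rank 14785 in replicate 3. These summits lay 86 bp and 211 bp downstream of the start, and no pooled summit lay within 100 bp of both. They may therefore be different peaks. In replicate 3 the summits at Su(var)205 and Su(var)3-7 were also nearer to the start of a neighbour than to that of the named gene. In replicate 3 these ranks were 1078 for Su(var)3-9, 1336 for Su(var)3-7, 1770 for Iswi, 2638 for E(bx) and 3066 for Su(var)205. In replicate 1 they were 2248 for Su(var)3-9, 3636 for E(bx), 6840 for Iswi, 7191 for Su(var)3-7 and 9220 for Su(var)205. Among the 3603 strongest peaks of replicate 3 the count was therefore 5 of 5 genes, Iswi through the summit at Mvk, against 20.4% of all genes. Among the 3603 strongest of replicate 1 it was 1 of 5, against 21.0% of all genes. Over all 7510 protein-coding genes with a promoter summit in both replicates, 49.7% ranked higher in replicate 3. Of the other chromatin genes described below 67.4% did. Counted over the whole regions, 12 of the 3603 strongest summits of replicate 3 lay in them and 4 of those of replicate 1, and the full lists of 30000 held 31 in replicate 3 and 35 in replicate 1. A strong replicate 3 summit with no pooled summit within 100 bp lay in the 5' UTR of CG11686 beside Su(var)3-7 (rank 3253), and another in the 5' UTR of muskelin beside Iswi (rank 1007). The 2 replicates do not allow a test of this difference, and what it depends on was not tested.

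**Figure D2:**
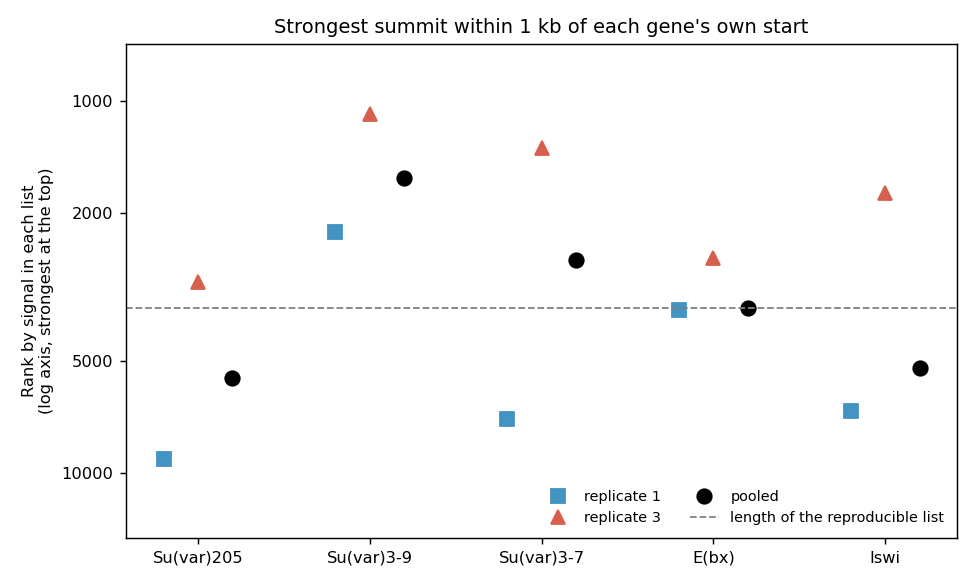
Rank by signal (log y axis, strongest at the top) of the strongest summit within 1 kb of each gene's own start, in replicate 1 (squares), replicate 3 (triangles) and the pooled list (circles), with a dashed line at rank 3603. Replicate 3 places all 5 genes above the line, with the Iswi points of replicate 3 and of the pooled list standing for the summit nearer to Mvk and that of replicate 1 for the start of Iswi, replicate 1 only Su(var)3-9, and the pooled list Su(var)3-9 and Su(var)3-7.

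Set among all genes, including those with no promoter summit, the 5 promoters were in the upper part of the range but not at its end. All 5 had some pooled summit within 1 kb of their TSS, against 59.3% of all genes, and some pooled summit by the 5 kb rule, against 76.6%. A weak pooled summit has little support, since the lowest -log10 q-value among the pooled peaks was 0.396. The median of the best pooled promoter rank was 3609 over the 5 genes and 5348 over the 8264 genes with such a summit. Su(var)205, at 5574, was weaker than the latter median, and so was the summit at the start of Iswi itself, at 8592. Iswi passed it only by the summit at Mvk, at 5224. The share of all genes with a stronger promoter summit was 9.54% for Su(var)3-9, 16.0% for Su(var)3-7, 21.4% for E(bx), 29.1% for Iswi, by the summit at Mvk, and 30.5% for Su(var)205. These shares are of all 13945 genes, with or without a promoter summit.

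**Figure D3:**
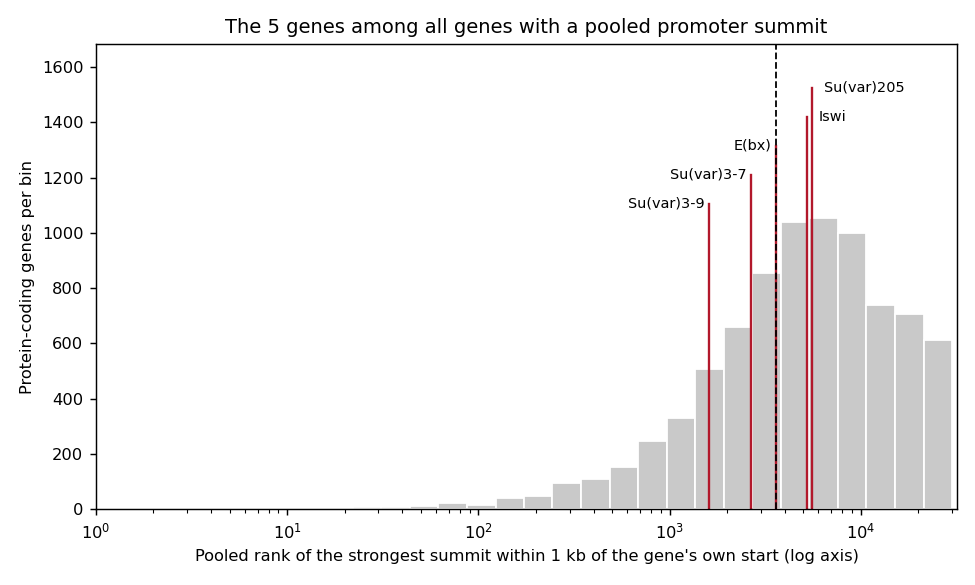
Number of protein-coding genes (y axis) by the pooled rank of the strongest summit within 1 kb of their own start (log x axis, grey bars), with red lines for the 5 genes and a dashed line at rank 3603. Su(var)3-9 and Su(var)3-7 lie left of the dashed line, E(bx) at rank 3609 falls on it, and Iswi and Su(var)205 lie to its right.

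All 5 genes start head to head with another protein-coding gene, which the choice of genes did not use. The distance to the partner's start was 94 bp for Su(var)3-9, 225 bp for Su(var)205, 303 bp for Su(var)3-7, 530 bp for Iswi and 579 bp for E(bx). Of all protein-coding genes 35.2% had such a partner within 1000 bp. Of those 4913 genes 34.6% (exact binomial interval 33.3 to 35.9) had a reproducible summit within 1 kb of their own TSS, against 14.1% (13.4 to 14.9) of the 9032 others. Head-to-head promoters are counted for both genes, so the genes of a pair are not independent. With a partner within 1000 bp, the 1 kb window also takes in the partner's start, so a summit there counts too. The shares with and without a partner are therefore not a like comparison, and the intervals do not cover this.

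None of the 7 reproducible summits had a STAT site within 50 bp. With 3 or 4 bases between the half-sites the count was 0 of 7, which by the exact binomial interval allows a share of up to 41.0%, against 14.8% (13.7 to 16.0) of all 3601 reproducible summits. So few summits cannot show a difference from that share. Over the whole peak, 3 of 7 held such a site (9.90 to 81.6%), against 34.9% (33.4 to 36.5) of all peaks. The full palindrome was present in 2 of 7 peaks (3.67 to 71.0%), those of Su(var)3-9 and TBC1D5 shown above, against 2.67% (2.16 to 3.25) of all peaks. The remaining peak was that of muskelin, with a 4-base-spacer site 176 bp from its summit. All intervals cover counting error only, and matching letters show neither binding nor its absence.

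The other promoter motifs were counted in the same windows. DRE, core promoter motif 1, the GAGA motif and the E-box motif CACGTG each matched 0 of the 7 windows of 101 bp, and the E-box motif CAGCTG matched 1, at CG8360. Of all reproducible summits 2.89% held DRE, 2.14% core promoter motif 1, 13.9% the GAGA motif, 1.61% the E-box CACGTG and 5.39% the E-box CAGCTG. As with the STAT sites, 7 summits are too few to show a difference from these shares. In the 250 bases upstream of the 5 genes no STAT site, core promoter motif 1, GAGA motif or E-box of either kind was found. Upstream of all genes the 3-base-spacer STAT site was in 7.74% of these windows, the 4-base-spacer site in 8.0%, the full palindrome in 0.359%, core promoter motif 1 in 2.75%, the GAGA motif in 25.7%, the E-box CACGTG in 2.86% and the E-box CAGCTG in 13.4%.

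STAT sites were present in all 5 regions. The regions held 62 sites with 3 or 4 bases between the half-sites, 0.798 per kb, against 0.648 per kb on the arms. Of these 62, 17 lay in a pooled peak, 3 in a reproducible peak and 3 within 50 bp of a pooled summit. Windows of 101 bp around the 40 pooled summits cover only a small part of the 77712 bp of the regions. Few sites would fall in them by position alone, so the count shows neither closeness to summits nor avoidance of them. Those windows around replicate summits are as small a part. The 3 sites within 50 bp of a pooled summit were all in the Iswi region, at the Mvk summits of ranks 5224 and 22107 and at a summit of rank 9177 in an intron of CG8785. At Su(var)205 the nearest site to its start inside a pooled peak was TTCGCAAGAA in its intron, 916 bp downstream. At E(bx) the pooled peak 1560 bp downstream held TTCCGAAGAA in a coding exon. The pooled peak of rank 9934 beside mthl14 held TTCCTTAGAA, 162 bp from its summit but 32 bp from the replicate 1 summit of rank 4690. It was the only 1 of the 62 sites within 50 bp of a replicate 1 summit.

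Lists of other heterochromatin and remodelling genes, most of them not in the complexes of the 5, gave a wider view. The lists held 57 genes, 5 of them the genes above. Of the other 52, 29 (55.8%) had a reproducible summit within 1 kb of their own TSS and 37 (71.2%) by the 5 kb rule, against 21.3% and 42.5% of all genes. The median pooled rank was 2543 over the 47 of them with a promoter summit. In replicate 3 the promoter summit ranked higher for 31 (67.4%) of the 46 with one in both replicates, against 49.7% of all such genes. The higher rank in replicate 3 was thus not particular to the 5 genes. By pooled rank the 5 genes were not the most strongly bound among chromatin genes, and no test was made of the lists.

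Among 27 HP1 family and heterochromatin genes, which include Su(var)205, Su(var)3-9 and Su(var)3-7, 15 had a reproducible promoter summit. The 8 strongest were those of HDAC1, a histone deacetylase (rank 466), mod(mdg4), a BTB domain gene linked to insulators (620), G9a, a histone methyltransferase (803), wde, a cofactor of the methyltransferase Eggless (858), vig (1002), E(var)3-9 (1254), Kdm4B, a histone demethylase (1309), and Su(var)2-HP2, an HP1a partner (1553). The HDAC1 summit lay 686 bp from its start and 84 bp from that of Src64B, and the Su(var)2-HP2 summit was nearer to Sec61beta. None of the 5 HP1 paralogues had a reproducible promoter summit. Besides Su(var)205 at rank 5574, HP1b stood at 6741 and HP1c at 7921, and neither HP1e nor rhi, genes known for germline expression, had a pooled promoter summit. Of the methyltransferases of lysine 9 of histone H3, G9a and Su(var)3-9 had one, and egg, whose strongest promoter summit ranked 6658, did not. That summit lay 958 bp from the start of egg and 58 bp from that of CG3594. Su(var)3-3, a demethylase gene, had no pooled promoter summit. The promoter of Su(var)2-10, which encodes a PIAS protein that also restrains STAT, ranked 3169. Its strongest promoter summit ranked 2266 in replicate 1 and 7078 in replicate 3. It was the only 1 of these 15 with a 3-base-spacer STAT site within 50 bp of its pooled summit, against 8.72% of all reproducible summits. A count of 1 in 15 cannot show a difference from that share.

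Among 10 genes of complexes that contain Iswi, 4 had a reproducible promoter summit. They were Chrac-16, a histone-fold subunit of CHRAC (rank 757), Caf1-55, a histone-binding subunit shared with other complexes (1119), tou, a subunit of the complex ToRC (1738), and CG8677 (2403). The pooled Chrac-16 summit lay 948 bp from its start, nearer to Lsm12a. The strongest summit within 1 kb of that start ranked 689 in replicate 1 and 9418 in replicate 3. Replicate summits were matched to pooled ones only in the regions of the 5 genes, so these may be different peaks. For CG8677 the ranks also differed, with 1251 in replicate 1 and 8270 in replicate 3. Of the 4 NURF subunits Caf1-55 alone had a reproducible promoter summit. E(bx) followed at 3609, Iswi at 5224, by the summit at Mvk, and Nurf-38, the inorganic pyrophosphatase subunit, at 8191. The Nurf-38 summit lay 742 bp from its start and 222 bp from that of CG11414. Without one were also CtBP (3987), Acf (4133) and Chrac-14 (9845). The Acf summit was nearer to the start of Mccc1 and the Chrac-14 summit nearer to that of D12.

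Among 20 genes of other remodelling complexes, 12 had a reproducible promoter summit. The strongest were those of Mi-2, the ATPase of NuRD (rank 251), brm, the ATPase of the SWI/SNF complexes (395), simj (917), kis, a CHD family ATPase (930), polybromo (1065), Ino80 (1230), Bap111 (1872) and MTA1-like (1889). The summit of Mi-2 was nearer to the start of Prp3. Of the 12 summits, those of Mi-2, polybromo and Bap111 alone held a 3-base-spacer site within 50 bp, against 8.72% of all reproducible summits. So few summits cannot show a difference from that share. The ATPase gene of NURF ranked below those of NuRD and SWI/SNF in the pooled list, at 8592 for the summit at the start of Iswi and 5224 for the one at Mvk, against 251 for Mi-2 and 395 for brm. In replicate 3 the summit nearest to the start of Iswi ranked 14785 and the one at Mvk 1770, against 276 for Mi-2 and 449 for brm. In replicate 1 the summit at the start of Iswi ranked 6840 and the one at Mvk 19759, against 243 for Mi-2 and 511 for brm.

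**Figure D4:**
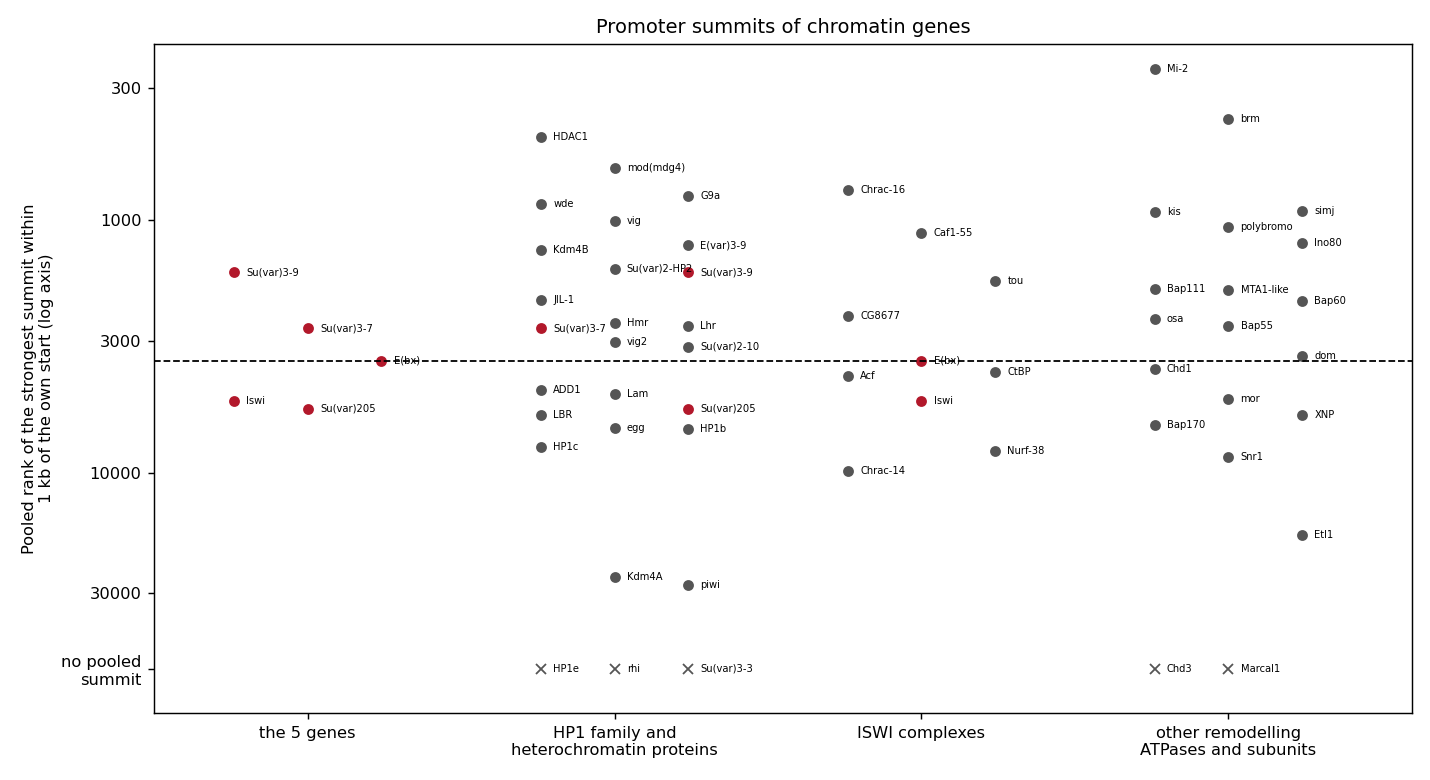
Pooled rank of the strongest summit within 1 kb of the own start (log y axis, strongest at the top) for the 5 genes (red, also in the lists they belong to) and the other genes of 3 chromatin lists, with crosses for genes without a pooled promoter summit and a dashed line at rank 3603. Of the 52 other genes 29 stand above the line, and of the 5 genes 2 do.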

How the data were processed

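Sonicated fragments measured 200 to 800 bp, per the labels. The authors deposited peak lists on build dm6 for each replicate, for both pooled and after IDR thresholding, with 1 control for both replicates in each call, per the file lists deposited with them. Not given in the sources used here are which program called the peaks, with what settings, and where IDR was cut. The deposited signal score (column 7) ranked peaks, the deposited -log10 q-value described them, and the deposited summit offset gave positions. Read depth is unknown. Gene models came from Ensembl release 115 and sequence from RefSeq's Release 6, and no peak ended beyond its arm. Peaks off the 6 arms were left out. In the regions of the 5 genes a replicate summit was matched to a pooled one within 100 bp. Motifs were searched with Python 3.11.15, and intervals are 95% exact binomial (SciPy 1.17.1). The counting rules were tested on simulated data. No test over samples was possible with 1 group of 2 replicates. The genes and lists were chosen with earlier results of these data known. Named genes were the 5, the 8 strongest of each list with a reproducible promoter summit, and neighbours nearer to a summit. Other genes were named after their values were seen.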

Additional observations from a re-analysis of the deposited data

How the results depend on the processing

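The counts depended on the distance allowed and on the replicate. With the gene span alone, with a 1 kb flank and with nearest-TSS assignment, the number of the 5 genes with a reproducible summit was 1, 2 and 1, against 4, and the number of summits was 1, 2 and 1, against 7. The stronger 50% of the list gave 4 summits and 1 gene with a promoter summit. Each replicate alone gave 3 to 5 genes, 4 to 12 summits and 1 to 5 genes with a promoter summit (replicate 1 lowest, replicate 3 highest, with Iswi there through the summit at Mvk). The other chromatin genes with a summit, 37, fell to 15 with the gene span and 23 with nearest-TSS assignment, and were 36 to 39 with 1 replicate. Summits with a STAT site were 1 of 7 within 100 bp, 4 of 7 within 250 bp and 3 of 7 in the whole peak, against 0 of 7 within 50 bp. Of all reproducible summits the shares were 22.8%, 38.4% and 34.9%, against 14.8%. Within 50 bp, replicate 3 alone gave 0 of 12 and replicate 1 alone 0 of 4. These numbers of summits are too few to show a difference. With a 1 kb flank the strongest pooled rank became 5574 for Su(var)205, against 68, and 5224 for Iswi, against 887. With 1 replicate it was 68 to 88 for Su(var)205, 1078 to 2248 for Su(var)3-9, 1336 to 5249 for Su(var)3-7, 2638 to 3636 for E(bx) and 1007 to 1454 for Iswi. These are not always the same peak. For Su(var)3-7 rank 5249 was that of the TBC1D5 summit in replicate 1, where the promoter summit ranked 7191. For Iswi rank 1007 was that of the replicate 3 summit in the 5' UTR of muskelin, which had no pooled summit within 100 bp. Of 52 alternative values, 30 stayed within the limits set for no change. For the strongest ranks the limit was the standard deviation of the ranks in the same replicates, so it widened where they differed more. By it 5249 against 2672 for Su(var)3-7 counted as no change, although these are ranks of different peaks, and 88 against 68 for Su(var)205 as a change. The count of 30 is therefore no measure of stability. The cause of the replicate differences was not tested. No paired analysis was possible because there is 1 group. Read depth is unknown, so which weak summits are true peaks cannot be settled.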

Other observations

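Lhr and Bap55 shared 1 promoter summit (rank 2624), so it counts in both their lists. Another full palindrome of the 5 regions, TTCCCGGAA on 3R at 15267107 to 15267115 in a coding exon of CG14864, lay in no pooled peak and 65 bp from a replicate 3 summit of rank 21741.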
